A study of Homo sapiens with 45 samples.

Results

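The enzymes described here carry long- and medium-chain fatty acids through mitochondrial beta-oxidation, the pathway that cuts fatty acids into acetyl-CoA. The 10 genes were taken by symbol from the deposited count table, which lists 64485 genes: CPT1A, CPT2, ACADM, ACADVL, HADHA, HADHB, ACAA2, ETFA, ETFB and DECR1. All 10 were found, and all 10 passed the filter on low counts. Total RNA was sequenced from 15 human breast cancer cell lines (genotype given as wild-type) with 3 replicates each, 45 libraries in all, after removal of ribosomal RNA. The labels name no treatment, so each line is compared with the other 14, and the title's interest in MYC-high cells is followed as a slope on the MYC level. L-15 medium, which holds galactose and pyruvate rather than glucose, was used for 5 lines (MDA-MB-453, MDA-MB-157, MDA-MB-468, MDA-MB-436, MDA-MB-231). RPMI 1640 was used for 8 lines (BT-549, HCC1143, HCC1187, HCC1395, HCC1806, HCC1937, HCC38, HCC70), EMEM for BT-20 and DMEM for Hs578T. Every medium held 10% serum. Insulin was added at 2 µg/mL for BT-20 and BT-549 and at 10 µg/mL for MDA-MB-436, which also received glutathione at 16 µg/mL. Each line was grown in 1 medium, so line and medium cannot be told apart.

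Long-chain fatty acids enter mitochondria as carnitine esters, made by CPT1 at the outer membrane and turned back into acyl-CoA by CPT2 at the inner membrane. Each turn of the spiral then runs through an acyl-CoA dehydrogenase, a hydratase, a hydroxyacyl-CoA dehydrogenase and a thiolase, and the dehydrogenases pass their electrons to the electron transfer flavoprotein. Fatty acids with double bonds need auxiliary enzymes such as DECR1. The pathway is best known from heart, muscle and liver, and breast epithelium lies within adipose tissue, a store of fatty acids.

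Total counts per library ran from 2312138 to 14653677, with a median of 6263573, and the members took 0.0910% to 0.231% of them. Values are given in CPM, counts scaled to a common library size, after TMM scaling. Hs578T replicate 2 had the lowest depth and stood apart from replicates 1 and 3. All 10 members were lowest in it, at 0.429 to 0.835 times the mean of replicates 1 and 3. Results for Hs578T are given with and without replicate 2 for ACADVL, ACAA2 and DECR1, and otherwise with it. The word run stands here for a block of adjacent columns in the deposited counts. The sample titles name only line and replicate, so whether these blocks are sequencing runs is not known from them. Runs 1 and 2 held all libraries of MDA-MB-231, Hs578T, HCC38 and HCC1143, while runs 3, 4 and 5 held those of the remaining 11 lines. Whether a line's replicates are separate cultures is not stated in the labels, so the p-values rest on a spread between samples that may be only technical. Without TMM scaling, the 8 epithelial markers summed to between 99.2 CPM in BT-549 and 11140 CPM in BT-20, and the 5 mesenchymal markers to between 12.2 CPM in HCC1806 and 10340 CPM in Hs578T. The 4 adipocyte markers never summed to more than 2.77 CPM in a line.

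Per kilobase of exon, HADHA was the most abundant member and CPT2 the least. Averaged over the 15 lines, the level was 89.8 CPM per kb for HADHA, 56.6 for ACADVL, 46.8 for ETFA, 33.2 for HADHB and 31.8 for ACADM. It was 22.6 CPM per kb for DECR1, 11.01 for ACAA2, 10.2 for CPT1A, 6.39 for ETFB and 2.40 for CPT2. The widest spread across lines was that of ACAA2, whose highest line mean was 76.3 times its lowest, followed by CPT1A (28.1 times) and ACADM (23.2 times). ETFA had the narrowest spread at 3.13 times. All 10 members differed among the lines by edgeR's quasi-likelihood test, as did 98.2% of the 20587 genes tested. The median SD of a member's line means was 0.87 on the log2 scale, and that of the 8570 protein-coding genes with a mean of at least 10 CPM was 0.68. The plot of CPM by library shows these values line by line.

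**Figure D1:**
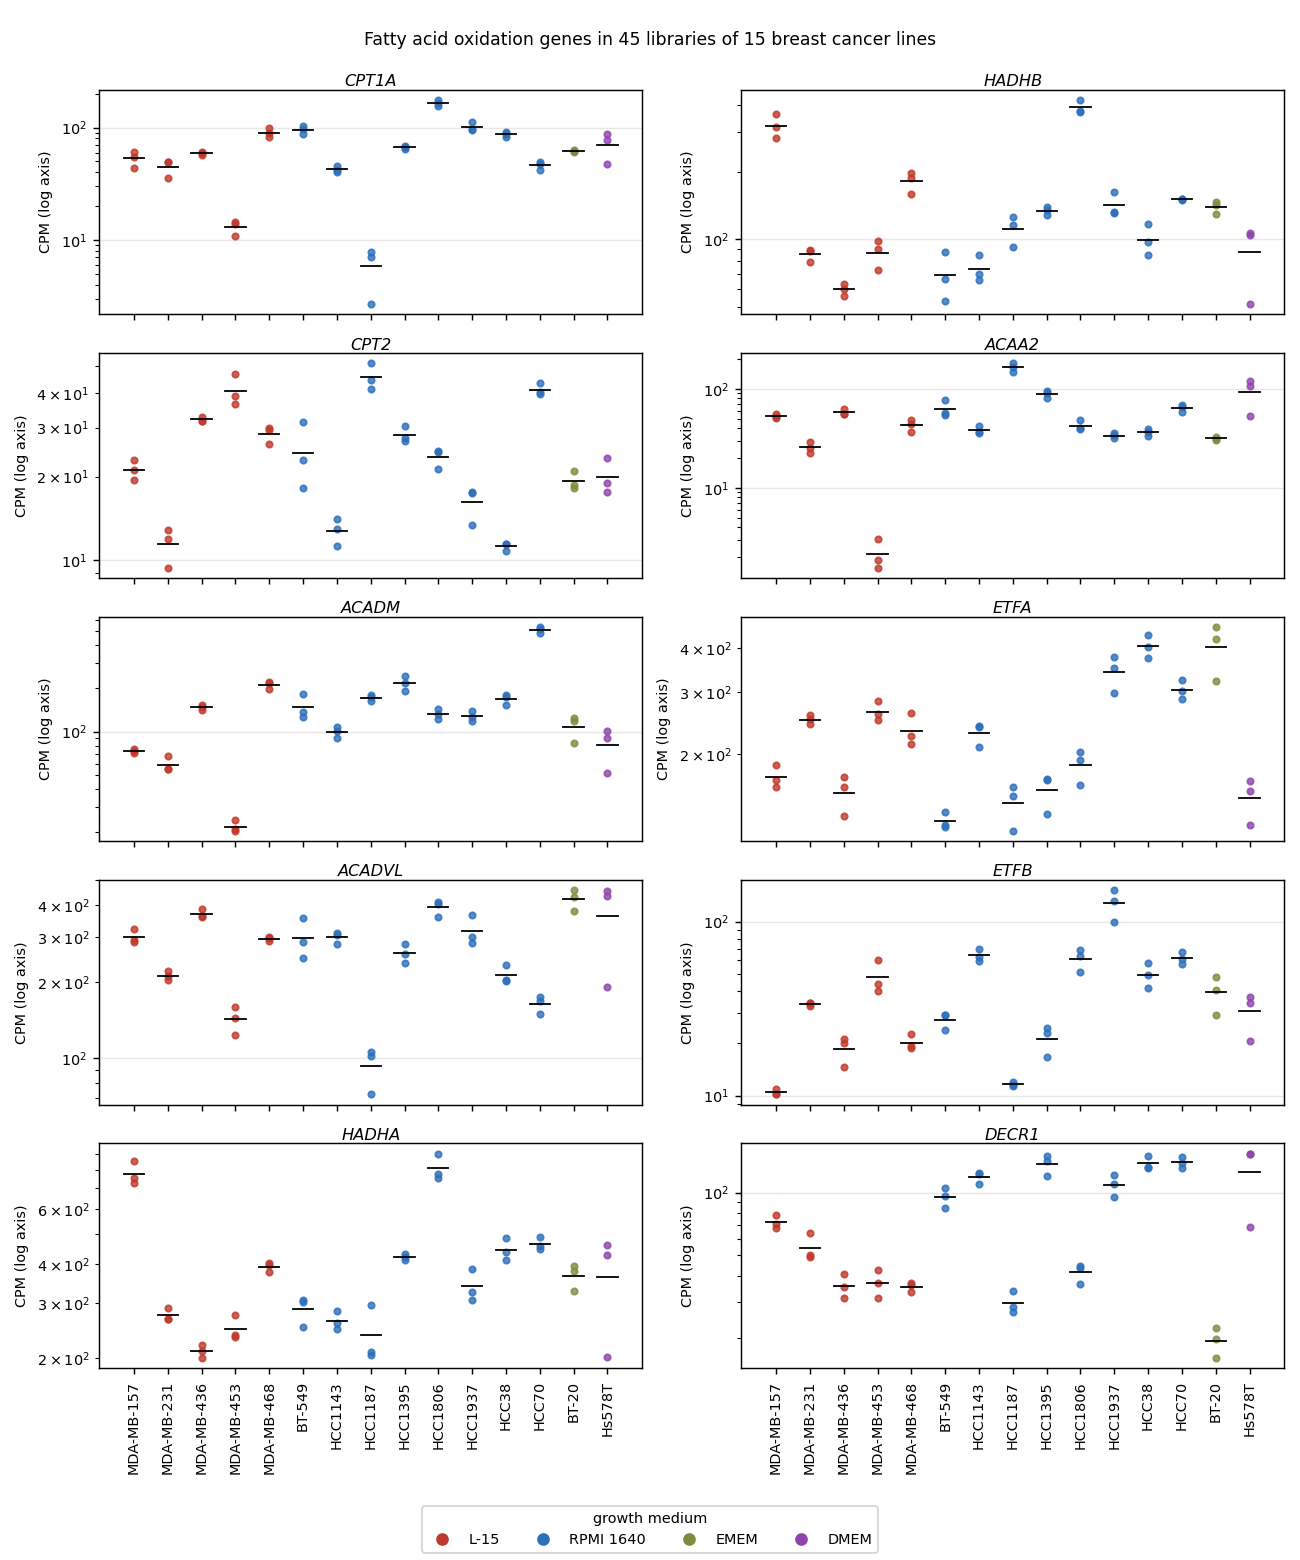
Each panel plots the CPM of 1 gene (log axis) in the 45 libraries, with 3 points per line, a black bar at the mean of each line and colors by growth medium. CPT1A drops to 5.88 CPM in HCC1187 and ACAA2 to 2.16 CPM in MDA-MB-453, while ACADM reaches 509 CPM in HCC70.

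CPT1A, the liver-type carnitine palmitoyltransferase that controls entry of long-chain acyl groups, was highest in HCC1806 and lowest in HCC1187 and MDA-MB-453. HCC1806 libraries held 176, 155 and 165 CPM. HCC1187 libraries held 7.05, 2.70 and 7.89 CPM, and MDA-MB-453 libraries 13.98, 14.6 and 10.8 CPM. The other 12 lines had means between 42.4 CPM (HCC1143) and 102 CPM (HCC1937), so neither low line overlapped any of them. Relative to the mean of the other 14 lines, CPT1A was higher in HCC1806 by 1.75 ± 0.10 (log2, SE; edgeR adjusted p = 3.9e-20). It was lower by -3.39 ± 0.18 in HCC1187 (edgeR adjusted p = 3.9e-21) and by -2.17 ± 0.16 in MDA-MB-453 (edgeR adjusted p = 1.4e-16). The levels rest on 14 to 1448 counts per library.

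CPT1A had the highest level per kb of the 3 CPT1 isoforms in 14 lines, and HCC1187 was the exception. CPT1C, the neuronal isoform that resides in the endoplasmic reticulum, reached 1.57 CPM per kb in HCC1187, where CPT1A was at 0.896 and the muscle isoform CPT1B at 0.507. In HCC1187 CPT1A made up 30.1% of the summed CPT1 level per kb. CPT1A made up 66.3% in MDA-MB-453, 77.3% in BT-549 and 80.2% to 98.8% in the other 12 lines. CPT1C was called higher in HCC1187 by 2.87 ± 0.26 (log2, SE; edgeR adjusted p = 3.8e-13), at 9.21 ± 1.40 CPM (SD, n = 3), and its extreme line means were 23.9 CPM (BT-549) and 0.0686 CPM (HCC1395). These shares per kb were computed after the values of CPT1A had been seen and have no test.

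CPT2, which rebuilds acyl-CoA inside the mitochondrion, varied less and in a different order. It was highest in HCC1187, with 51.1, 41.4 and 44.5 CPM, the line in which CPT1A was lowest. Next came HCC70 at 41.1 ± 2.10 CPM and MDA-MB-453 at 40.8 ± 5.44 CPM (SD, n = 3 each). HCC38 libraries held 10.9, 11.4 and 11.5 CPM, and MDA-MB-231 libraries 12.9, 9.43 and 11.9 CPM. CPT2 was called higher in HCC1187 by 1.07 ± 0.10, and lower in HCC38 by -1.10 ± 0.13 and in MDA-MB-231 by -1.08 ± 0.13 (log2, SE; edgeR adjusted p = 9.5e-13, 6.3e-10 and 2.3e-09). Of the 4 lines of runs 1 and 2, 3 had a lower CPT2 mean than every one of the 11 lines of runs 3 to 5. The 4 lines ranged from 11.2 to 20.02 CPM and the 11 lines from 16.2 to 45.7 CPM, and run and line cannot be told apart here. Within the 11 lines the difference of HCC1187 was 0.76, and within the 4 lines those of HCC38 and MDA-MB-231 were -0.42 and -0.33.

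ACADVL, the dehydrogenase of the inner membrane that starts each turn on long chains, was called in 1 line. HCC1187 held 102, 72.2 and 106 CPM, below every library of the other 14 lines. The highest mean was that of BT-20 at 422 ± 39.9 CPM (SD, n = 3). Hs578T held 456, 191 and 436 CPM, and without replicate 2 its mean of 446 CPM was above that of BT-20. ACADVL was lower in HCC1187 by -1.56 ± 0.15 (log2, SE; edgeR adjusted p = 1.2e-12).

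ACADM, which acts on medium chains and is the gene of MCAD deficiency, ran from 509 ± 27.1 CPM in HCC70 to 21.9 ± 2.12 CPM in MDA-MB-453 (SD, n = 3 each). HCC70 libraries held 512, 534 and 480 CPM and HCC1395, the next line, 191, 217 and 244 CPM. MDA-MB-453 libraries held 24.4, 21.1 and 20.4 CPM, and the next lowest line, MDA-MB-231, held 67.6, 55.1 and 54.7 CPM. Neither HCC70 nor MDA-MB-453 overlapped another line. ACADM was called higher in HCC70 by 2.199 ± 0.090 (log2, SE; edgeR adjusted p = 7.6e-26). It was called lower in MDA-MB-453 by -2.66 ± 0.15 and in MDA-MB-231 by -1.13 ± 0.13 (edgeR adjusted p = 2.0e-20 and 3.3e-10). Within the 4 lines of runs 1 and 2 the difference of MDA-MB-231 was -0.91, below the threshold of 1.

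HADHA and HADHB encode the alpha and beta subunits of the mitochondrial trifunctional protein, which holds the hydratase, dehydrogenase and thiolase for long chains. Both were high in the same 2 lines. HADHA had 903, 780 and 755 CPM in HCC1806 and 859, 727 and 753 CPM in MDA-MB-157, and no library of the other 13 lines reached these values. HADHB had 419, 370 and 375 CPM in HCC1806 and 361, 282 and 317 CPM in MDA-MB-157, again above every other line. MDA-MB-436 had the lowest mean for both, overlapping the next line each time, with 219, 210 and 200 CPM of HADHA and 60.1, 55.8 and 63.3 CPM of HADHB. HADHA was higher by 1.25 ± 0.11 in HCC1806 and by 1.18 ± 0.11 in MDA-MB-157 (log2, SE; edgeR adjusted p = 3.2e-14 and 2.0e-13). HADHB was higher by 1.79 ± 0.10 in HCC1806 and by 1.49 ± 0.11 in MDA-MB-157, and lower by -1.10 ± 0.14 in MDA-MB-436 (edgeR adjusted p = 5.9e-20, 1.4e-16 and 4.1e-09).

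Of the 45 pairs of members, HADHA and HADHB kept the steadiest ratio across lines. The SD of their log2 ratio over the 15 lines was 0.37, against 0.15 between replicates, and the next pair, ACADVL and HADHA, had 0.69. Pearson's r of HADHA and HADHB was 0.89 and Spearman's rho 0.76 over 15 lines, which share the libraries and their depth. Without HCC1806 and MDA-MB-157, r was 0.70, and within the 11 lines of runs 3 to 5 it was 0.93. Per kb, HADHA stood at 2.04 times HADHB in HCC1806 and at 4.42 times in HCC38, with ± 0.0720 and ± 0.541 (SD, n = 3 each).

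The 2 genes lie head to head on chromosome 2, HADHA on the minus strand (chr2:26190635-26244726) and HADHB on the plus strand (chr2:26243170-26290468, GENCODE 29, GRCh38). In RefSeq 306 bases lie between their first bases, so their promoter windows overlap, and the shared stretch is shown for that reason. The line below gives the 250 bases before the HADHB start (RefSeq, GRCh38.p14, chr2:26244689-26244938, plus strand). Capitals mark the 194 bases that also fall in the promoter window of HADHA, which runs from 250 bases before to 50 bases after its start.
HADHB: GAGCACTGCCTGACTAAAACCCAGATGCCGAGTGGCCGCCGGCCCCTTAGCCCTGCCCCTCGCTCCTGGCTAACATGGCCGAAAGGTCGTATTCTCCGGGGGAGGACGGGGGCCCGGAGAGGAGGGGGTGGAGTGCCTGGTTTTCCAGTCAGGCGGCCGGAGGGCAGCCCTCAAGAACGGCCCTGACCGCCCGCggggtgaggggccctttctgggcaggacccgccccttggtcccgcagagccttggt
Neither gene's 300-base window held CACGTG (the E-box that MYC and MAX bind), AGGTCA (the core of nuclear receptor sites), TNAAGGTCA (the ERR site), GCGCATGCG (the NRF1 site) or CCAAT on either strand. TNAAGGTCA contains AGGTCA.

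**Figure D2:**
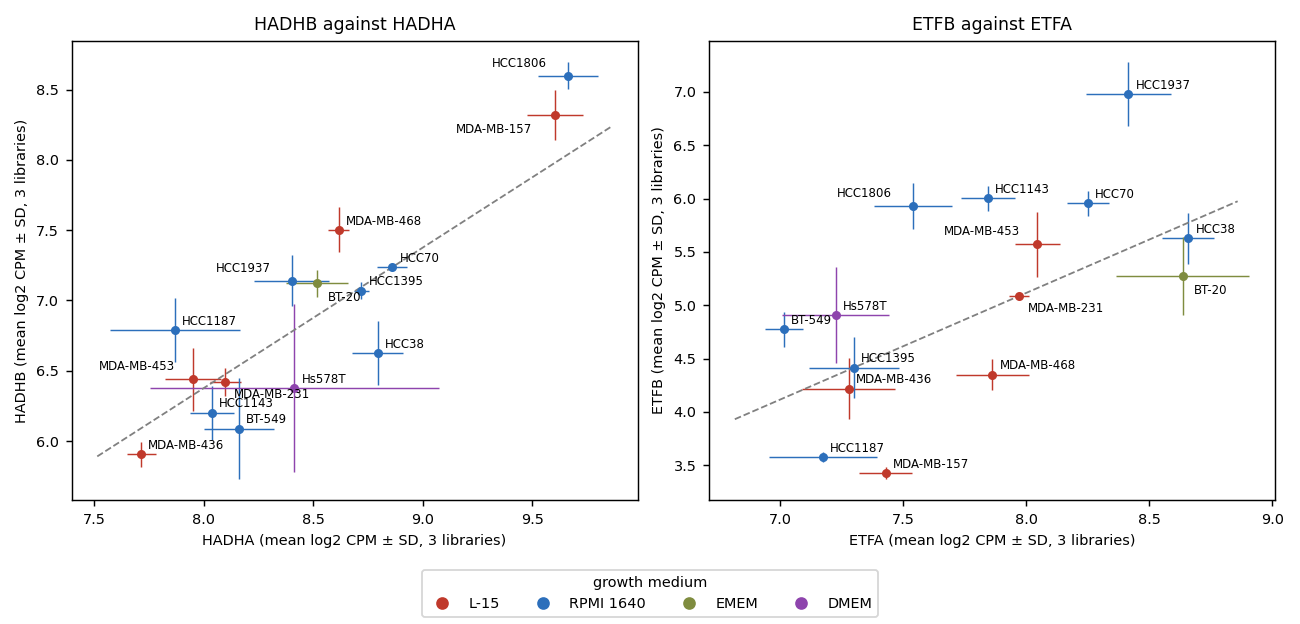
Mean log2 CPM of each line (± SD, 3 libraries) for HADHB against HADHA and for ETFB against ETFA, with colors by growth medium and a dashed line at the median ratio of the 15 lines. HADHA and HADHB lie along the line (SD of the log2 ratio 0.37), while MDA-MB-157 and HCC1937 lie far off it for ETFA and ETFB (SD 0.76).

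ACAA2, the mitochondrial thiolase for medium-chain 3-ketoacyl-CoA, had the widest range. MDA-MB-453 libraries held 1.89, 1.57 and 3.02 CPM, from 10, 9 and 22 reads. MDA-MB-231, the next lowest line, held 22.6, 29.1 and 25.1 CPM, and HCC1187, the highest, 181, 148 and 165 CPM. Neither MDA-MB-453 nor HCC1187 overlapped another line. ACAA2 was called lower in MDA-MB-453 by -4.55 ± 0.22 and higher in HCC1187 by 2.09 ± 0.10 (log2, SE; edgeR adjusted p = 4.6e-23 and 9.5e-23). It was also called higher in HCC1395 by 1.14 ± 0.11, at 88.7 ± 7.07 CPM, and in Hs578T by 1.24 ± 0.11, at 93.7 ± 36.0 CPM (SD, n = 3; edgeR adjusted p = 2.9e-12 and 3.9e-13). Without Hs578T replicate 2, the difference of Hs578T was 1.51.

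ETFA and ETFB form the electron transfer flavoprotein, which takes electrons from the acyl-CoA dehydrogenases, and their ratio varied more between lines than that of HADHA and HADHB. ETFA, the alpha subunit, was called in none of the 15 lines, with its highest mean at 405 ± 29.6 CPM in HCC38 and its lowest at 129 ± 6.98 CPM in BT-549 (SD, n = 3 each). ETFB, the beta subunit, had 152, 132 and 100 CPM in HCC1937, above every other line. It had 10.95, 10.3 and 10.1 CPM in MDA-MB-157 and 12.04, 11.6 and 11.3 CPM in HCC1187, below every other line. ETFB was higher in HCC1937 by 2.06 ± 0.105, and lower in MDA-MB-157 by -1.80 ± 0.17 and in HCC1187 by -1.64 ± 0.17 (log2, SE; edgeR adjusted p = 9.0e-22, 9.5e-13 and 1.0e-11). Per kb, ETFA stood at 21.4 ± 0.734 times ETFB in MDA-MB-157 and at 3.52 ± 0.328 times in HCC1937 (SD, n = 3 each). The SD of the log2 ratio was 0.76 between lines and 0.18 between replicates, place 4 of the 45 pairs. Pearson's r of ETFA and ETFB was 0.64 and Spearman's rho 0.64 over 15 lines, and r was 0.67 without BT-549 and HCC38 and also within the 11 lines of runs 3 to 5.

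CCAAT, the box bound by NF-Y, was found in the promoter windows of ETFA and ETFB and in those of none of the other 7 members with a window. DECR1 was not searched. The 250 bases before each start are shown, since these are the windows of members that hold a searched motif (RefSeq, GRCh38.p14, minus strand, chr15:76311470-76311719 for ETFA and chr19:51366389-51366638 for the ETFB start with the box). Capitals mark CCAAT or its reverse complement.
ETFA: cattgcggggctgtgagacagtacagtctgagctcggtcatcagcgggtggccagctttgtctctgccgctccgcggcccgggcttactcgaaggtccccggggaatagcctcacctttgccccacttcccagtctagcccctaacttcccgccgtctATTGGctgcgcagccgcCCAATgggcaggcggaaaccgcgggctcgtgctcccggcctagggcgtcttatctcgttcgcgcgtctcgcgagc
ETFB: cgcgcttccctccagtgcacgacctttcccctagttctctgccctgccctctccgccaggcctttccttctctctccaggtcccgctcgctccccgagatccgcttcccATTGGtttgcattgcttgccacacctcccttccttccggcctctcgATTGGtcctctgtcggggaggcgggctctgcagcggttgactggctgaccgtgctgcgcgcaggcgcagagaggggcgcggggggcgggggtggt
Of the 35116 RefSeq promoter windows of the same length, 34.6% held CCAAT on either strand, 13.8% AGGTCA, 7.26% CACGTG, 1.92% GCGCATGCG and 0.951% TNAAGGTCA. The members matched 11 windows of 9 genes, of which 2 held CCAAT and 0 any of the other 4 motifs. A match or its absence describes these letters in this window only.

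DECR1, the dienoyl-CoA reductase needed for polyunsaturated chains (on chromosome 8), was high in HCC70, HCC38, HCC1395 and Hs578T and lowest in BT-20. HCC70 held 139, 149 and 132 CPM, HCC38 131, 133 and 150 CPM and HCC1395 120, 142 and 150 CPM. Hs578T held 154, 68.1 and 153 CPM, and without replicate 2 its mean of 153 CPM was the highest of the 15 lines. BT-20 was lowest with 19.9, 16.1 and 22.4 CPM, followed by HCC1187 with 33.7, 26.8 and 28.3 CPM. DECR1 was called higher in HCC70 by 1.17 ± 0.11, HCC38 by 1.15 ± 0.11, HCC1395 by 1.15 ± 0.11 and Hs578T by 1.01 ± 0.11 (log2, SE; edgeR adjusted p = 7.3e-13, 3.3e-12, 2.3e-12 and 2.6e-10). It was called lower in BT-20 by -1.88 ± 0.16 and in HCC1187 by -1.23 ± 0.15 (edgeR adjusted p = 2.2e-14 and 8.4e-10). The call in Hs578T, at 125 ± 49.2 CPM (SD, n = 3), lies on the threshold of 1, and the difference was 1.30 without replicate 2. Within the 4 lines of runs 1 and 2, HCC38 stood at 0.50 and Hs578T at 0.44, below the threshold.

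Over the 150 pairs of member and line, 15 (10%) were called higher and 13 (8.67%) lower at an absolute log2 difference of at least 1, against 16.2% and 12.5% of all gene and line pairs. HCC1187 had the most calls, with CPT2 and ACAA2 higher and CPT1A, ACADVL, ETFB and DECR1 lower, where 16.4% and 12.5% of all genes were called. MDA-MB-453 had CPT1A, ACADM and ACAA2 lower and no member higher, where 14.6% of genes were called lower. HCC1806 had CPT1A, HADHA and HADHB higher and none lower, where 15.9% of genes were called higher. HCC70 had ACADM and DECR1 higher and none lower, where 17.7% and 22.9% of genes were called. Hs578T had ACAA2 and DECR1 higher and none lower, where 20.9% and 9.56% were. No member was called in MDA-MB-468 (14.7% of genes higher and 9.19% lower), BT-549 (13.3% and 10.7%) or HCC1143 (18.4% and 11.3%). MDA-MB-157 had HADHA and HADHB higher and ETFB lower, where 20% and 12.4% of genes were called. HCC38 had DECR1 higher and CPT2 lower (13.8% and 10.2% of genes), and HCC1395 had ACAA2 and DECR1 higher (14.4%). HCC1937 had ETFB higher (14.5%), MDA-MB-231 had CPT2 and ACADM lower (10.5%), MDA-MB-436 had HADHB lower (10.9%) and BT-20 had DECR1 lower (11.3%).

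Summed over the 10 members, the level was highest in HCC1806 at 2246 ± 158 CPM and lowest in MDA-MB-453 at 905 ± 71.8 CPM (SD, n = 3 each). HCC70 followed at 1946 ± 52.5 CPM and MDA-MB-157 at 1855 ± 149 CPM, and HCC1187 was second lowest at 1016 ± 118 CPM. The median member difference was -0.74 in MDA-MB-453 and -0.65 in HCC1187 on the log2 scale, where the median of all tested genes was 0.084 and 0.035. In HCC70 it was 0.57, with all genes at -0.11. In HCC1187 the outer-membrane CPT1A and the long-chain dehydrogenase ACADVL had their lowest means, and CPT2 and the medium-chain thiolase ACAA2 their highest. In MDA-MB-453 the medium-chain dehydrogenase and thiolase were both at their lowest, while CPT2 had rank 3 and ETFA rank 5 of the 15 lines.

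**Figure D3:**
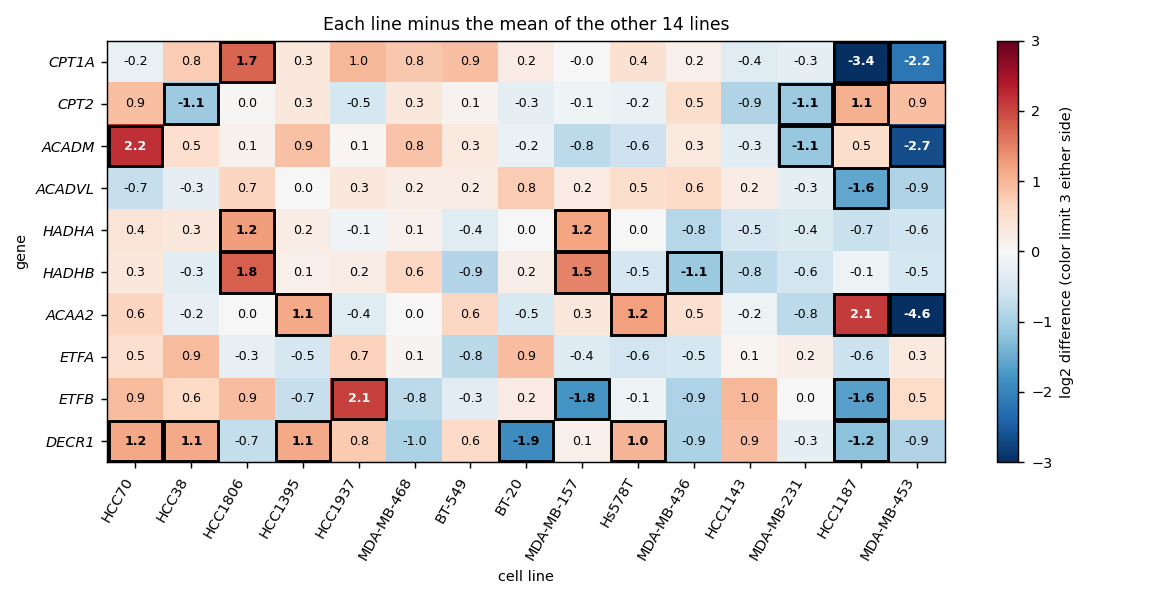
Log2 difference of each line from the mean of the other 14 lines (edgeR), genes in rows and lines in columns ordered by their median difference. Framed cells passed an adjusted p of 0.05 and an absolute difference of 1, with 6 framed cells in HCC1187 and 3 in MDA-MB-453, and none for ETFA.

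The genes whose line profile was most like that of each of the 3 widest-ranging members were found among 26614 genes by Pearson's r of log2 CPM over 15 line sums, which share libraries and depth. For ACAA2 they were SORBS3 (r = 0.93), PUS7 (0.90) and GPX8 (0.90), and without MDA-MB-453, their lowest line, the values were 0.82, 0.65 and 0.69. For CPT1A they were the long noncoding RNA LINC00857 (r = 0.92), CD44 (0.87) and IGF2BP3 (0.87), and without HCC1187 0.87, 0.90 and 0.79. For ACADM they were the processed pseudogene AL035411.1 (r = 0.92), AUH (0.90) and PSMB2 (0.89), and without MDA-MB-453 0.88, 0.83 and 0.85. Spearman's rho was 0.82, 0.66 and 0.78 for the 3 genes of ACAA2, 0.77, 0.78 and 0.49 for those of CPT1A, and 0.83, 0.75 and 0.85 for those of ACADM, in the same order. None of these lies within 1 Mb of its member. Among genes within 1 Mb, the most alike were RPL17 for ACAA2 (r = 0.41), ALDH3B1 for CPT1A (0.66) and RABGGTB for ACADM (0.50). RABGGTB shares 157 exon bases with ACADM.

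The nearest tested genes on each chromosome, 5 on either side of a member, moved with it in some lines and not in others. Only some of the called pairs of member and line are described. Around ACAA2 on chromosome 18 (chr18:49782167-49813960, minus strand, GENCODE 29, GRCh38), all 10 neighbours were called higher in HCC1187, where 16.4% of all genes were. Their median difference was 1.54 on the log2 scale, with a range from 1.04 to 7.42. The highest was SMUG1P1, which stood at -0.76 with SEs of 2180, 2410 and 2350 in HCC1395, Hs578T and MDA-MB-453. It may have passed the filter only through HCC1187, so its call there carries no weight. The neighbours included LIPG, an endothelial-type lipase, at 6.76 and MYO5B, a myosin motor, at 2.92. In MDA-MB-453, where ACAA2 was at -4.55, the neighbours had a median of 0.51. LIPG alone was called lower (-2.84) and MYO5B was called higher (3.56), where 14.6% and 17.7% of all genes were.

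Around HADHA and HADHB, KIF3C, RAB10, GAREM2, ADGRF3 and SELENOI were called higher in HCC1806, where 15.9% of all genes were. The median difference of HADHA's 10 neighbours, HADHB included, was 1.09 in this line. In MDA-MB-157 that median was 1.24, and all 10 neighbours had positive differences. GAREM2, KIF3C, ASXL2, ADGRF3 and DRC1 were called higher besides HADHB, where 20% of all genes were. ETFB in HCC1937 had 6 of 10 neighbours called higher, where 14.5% of all genes were, and the neighbours' median was 1.09. One of the 6 was the antisense gene AC008750.4, which overlaps ETFB. Around ACADM in HCC70 (chr1:75724347-75787575, plus strand), by contrast, the neighbours' median was -0.86. In this line 1 of the 10 was called higher, where 17.7% of all genes were. CPT2 in HCC38 had all 10 neighbours below 0, with a median of -0.98, and 4 called lower, where 10.2% of all genes were. One of the 4 was AL606760.2, which lies antisense to CPT2 over 11% of its exons. PODN and SLC1A7, also among the 4, had wide SEs of 1.55 and 0.905. DNA copy number was not measured here.

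**Figure D4:**
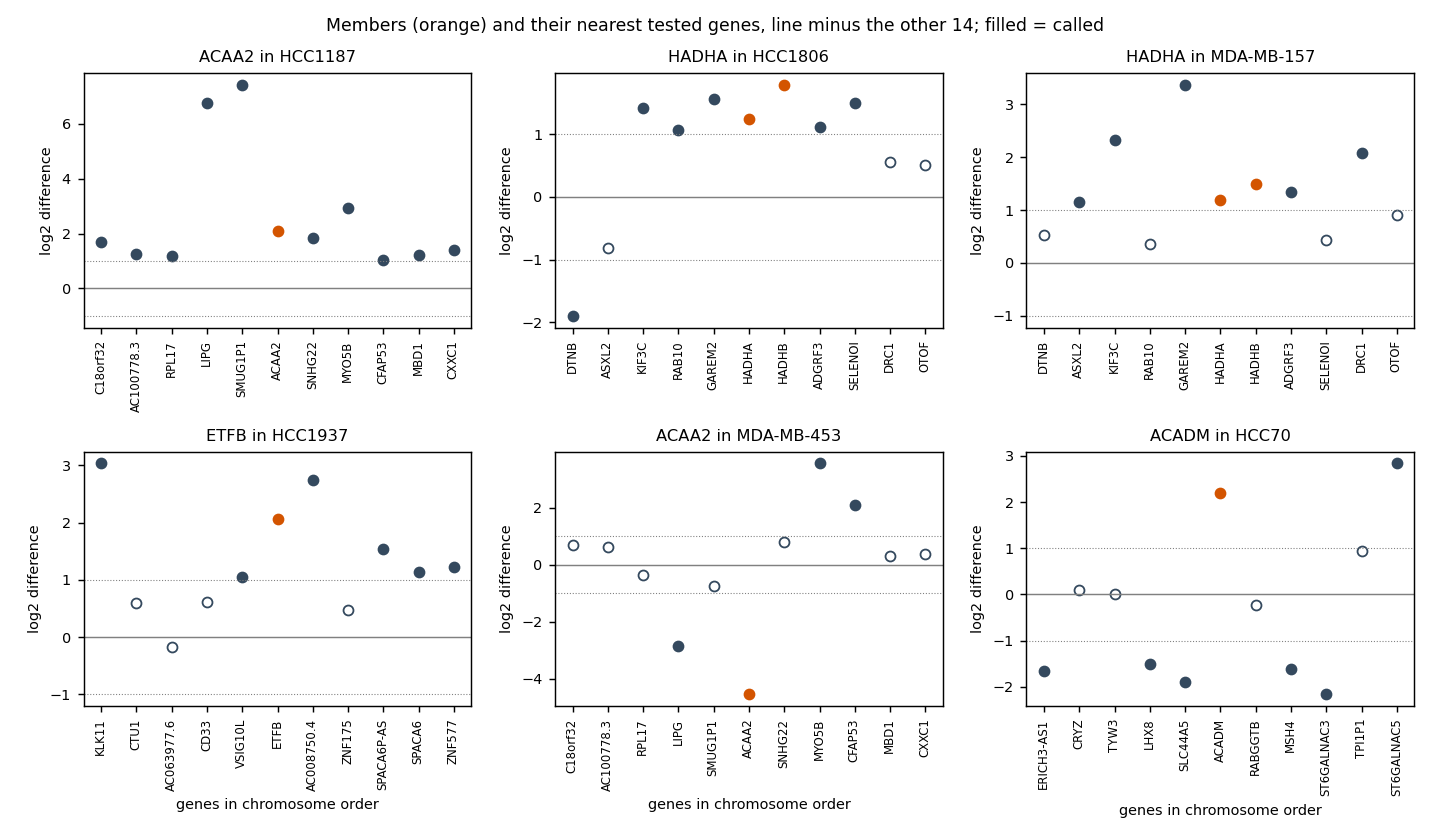
Log2 difference of a line from the other 14 lines for a member (orange) and its nearest tested genes in chromosome order (no error bars), with filled points for called genes and dotted lines at 1 and -1. All 10 neighbours of ACAA2 lie above 1 in HCC1187, whereas those of ACAA2 in MDA-MB-453 have a median of 0.51 and those of ACADM in HCC70 a median of -0.86. SMUG1P1, the highest of the 10, may have passed the filter only through HCC1187.

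No member passed the test for a slope on MYC. MYC, the transcription factor that the study's title names, ran from 200 ± 48.4 CPM in MDA-MB-231 to 17.8 ± 4.01 CPM in MDA-MB-453 (SD, n = 3 each), and a slope on MYC's log2 CPM was fitted for each gene over 15 line sums. By edgeR's test, 0 members rose and 0 fell, against 2 rising (0.00751%) and 40 falling (0.15%) of 26615 genes, and 0 members had an unadjusted p under 0.05, where 2.8% of genes had one with a positive slope and 3.4% with a negative one. The steepest member slopes were CPT1A at 0.55 ± 0.38 and ACAA2 at 0.54 ± 0.44 log2 units per log2 unit of MYC (SE; edgeR adjusted p = 0.905 and 0.933). Within the 11 lines of runs 3 to 5 these slopes were 0.82 and 1.06 (edgeR adjusted p = 0.655 and 0.555). The lowest was CPT2 at -0.26 ± 0.22 (edgeR adjusted p = 0.939). The median member slope was 0.16, and that of all tested genes 0.0093. MYC, ACADM and ACAA2 all had their lowest mean in MDA-MB-453. Without it, the ACADM slope was -0.42, the ACAA2 slope -0.13, and no gene was called in either direction.

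No member passed the test between L-15 and RPMI 1640. Negative differences were found for 8 of the 10 members and for 51.7% of all tested genes. DECR1 had line means of 35.4 CPM at the lowest, 36.8 at the median and 72.1 at the highest in the 5 L-15 lines, against 29.6, 114 and 140 CPM in the 8 RPMI 1640 lines. All 5 L-15 lines lay below the RPMI 1640 median, and the groups overlapped. The difference was -1.16 ± 0.41 (log2, SE), with an edgeR unadjusted p of 0.0129 and an adjusted p of 0.347. ETFB had 10.5, 20.1 and 48.03 CPM at the lowest, median and highest in L-15, against 11.6, 55.3 and 128 CPM in RPMI 1640, a difference of -1.06 ± 0.53 (edgeR adjusted p = 0.47). ACADM differed by -0.998 ± 0.536 and ACAA2 by -0.91 ± 0.60 (edgeR adjusted p = 0.495 and 0.579). Within the lines of runs 3 to 5 the differences were -1.10 for DECR1, -1.15 for ETFB, -1.004 for ACADM and -1.02 for ACAA2 (edgeR adjusted p = 0.482, 0.556, 0.578 and 0.628). CPT1A differed by -0.60 ± 0.59, and CPT2, ACADVL, HADHB, HADHA and ETFA lay between -0.18 and 0.019.

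No gene of the 20505 tested was called in either direction (0%), while 5.83% had an unadjusted p under 0.05 and a positive difference and 5.6% a negative one. DESeq2 on the same line sums called 163 genes higher and 244 lower of 20505, and 0 of the 10 members. The DESeq2 unadjusted p was under 0.05 for 3 members. The median difference was -0.39 for the members and -0.030 for all tested genes. The 8 epithelial markers also had negative differences in all 8 cases (median -1.28), and the part of line type in the members' differences was not tested.

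**Figure D5:**
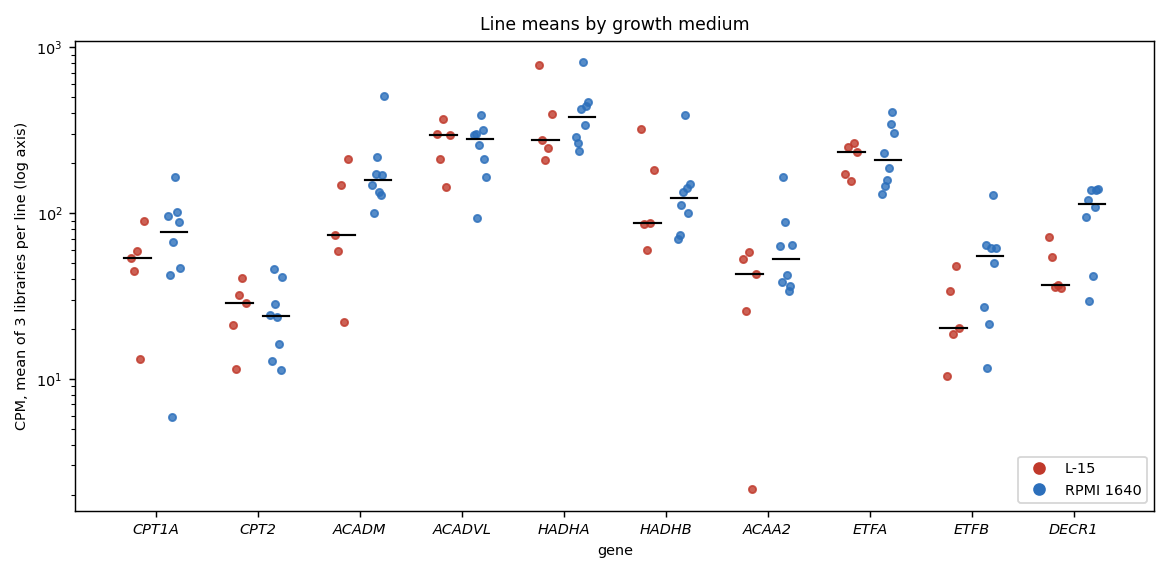
Mean CPM of each line (log axis) for the 10 genes, with the 5 L-15 lines to the left of the 8 RPMI 1640 lines and black bars at the group medians. The L-15 median of DECR1 is 36.8 CPM and the RPMI 1640 median 114 CPM, and every gene's groups overlap.

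Other genes of fatty acid use were described by list. Of 12 tested genes for uptake and activation, all differed among lines, and 22.8% of gene and line pairs were called higher and 20.6% lower, against the 16.2% and 12.5% of all genes. FABP5, a fatty acid binding protein, ran from 381 ± 16.6 CPM in HCC1143 to 0.206 ± 0.0852 CPM in BT-20, and ACSL5, an acyl-CoA synthetase, from 152 ± 24.5 CPM in MDA-MB-231 to 0.237 ± 0.326 CPM in HCC1395 (SD, n = 3 each). Of 8 other carnitine genes, 22.5% of pairs were called higher and 18.3% lower. CRAT, the carnitine acetyltransferase, stood at 206 ± 18.7 CPM in MDA-MB-453 and at 0.256 ± 0.217 CPM in HCC70 (SD, n = 3 each). MDA-MB-453 thus held the highest CRAT level beside the second lowest CPT1A. SLC25A20, the carnitine-acylcarnitine carrier between CPT1 and CPT2, was called lower in the same 2 lines as CPT1A, by -1.59 ± 0.17 in HCC1187 and -1.19 ± 0.16 in MDA-MB-453 (log2, SE; edgeR adjusted p = 4.55e-11 and 1.15e-08). Its means there were 4.73 ± 0.758 and 6.16 ± 1.37 CPM (SD, n = 3 each). Of the 8 carnitine genes, 2 were called higher and 2 lower in HCC1187, and 3 higher and 1 lower in MDA-MB-453. Of all genes, 16.4% were called higher and 12.5% lower in HCC1187, and 17.7% and 14.6% in MDA-MB-453.

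The 13 other mitochondrial beta-oxidation enzymes had 14.9% of pairs called higher and 11.8% lower. ECI2, an enoyl-CoA isomerase for unsaturated chains, ran from 272 ± 9.95 CPM in MDA-MB-231 to 0.340 ± 0.123 CPM in HCC70, where DECR1 was called higher (SD, n = 3 each). ACADS, the short-chain dehydrogenase, ran from 14.1 ± 1.05 CPM in MDA-MB-436 to 1 read over the 3 libraries of MDA-MB-453, where ACADM was also lowest. In HCC1187, 2 of these 13 genes were called higher and 5 lower, with a median difference of -0.82, where 16.4% and 12.5% of all genes were called. In HCC1806, 4 were called higher and 0 lower, with a median of 0.54, where 15.9% and 13.7% of all genes were called.

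Of 14 tested peroxisomal genes, 15.7% of pairs were called higher and 11.4% lower. HSD17B4, the bifunctional peroxisomal enzyme, stood at 427 ± 63.9 CPM in MDA-MB-468 and at 1.77 ± 0.451 CPM in HCC1806 (SD, n = 3 each), the line with the highest HADHA and HADHB. ABCD2, a peroxisomal fatty acyl-CoA transporter, ran from 44.0 ± 3.88 CPM in HCC1395 to 0.507 ± 0.127 CPM in HCC70. In MDA-MB-453, 5 of the 14 peroxisomal genes were called higher and 2 lower, where 17.7% and 14.6% of all genes were called. Their median difference was 0.48, and that of the members -0.74.

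The 13 regulators had 16.4% of pairs called higher and 14.9% lower. PPARG, a nuclear receptor of lipid genes, was highest in HCC1937 with 102 ± 5.47 CPM and lowest in MDA-MB-453 with 1.25 ± 0.620 CPM. PRKAA2, a catalytic AMPK subunit, was highest in MDA-MB-468 with 107 ± 14.3 CPM and lowest in HCC1937 with 2.70 ± 0.49 CPM (SD, n = 3 each). Of 9 tested PPAR target genes outside the members, 28.1% of pairs were called higher and 11.9% lower. PLIN2, a lipid droplet coat protein, stood at 895 ± 53.5 CPM in MDA-MB-157 and at 0.923 ± 0.996 CPM in MDA-MB-453. ANGPTL4, a secreted lipase inhibitor, was also highest in MDA-MB-157, at 185 ± 11.7 CPM, and had 0 reads in HCC1143, which allows up to 0.189 CPM (3 reads over its summed libraries, counting error only). Of 5 ketone body genes, 8% of pairs were called higher and 12% lower, and OXCT1, which starts ketone use, ran from 1090 ± 73.9 CPM in HCC70 to 28.9 ± 1.85 CPM in MDA-MB-231. ACAT1, the thiolase of ketone use and isoleucine breakdown, ran from 279 ± 8.24 CPM in MDA-MB-231 to 30.9 ± 2.60 CPM in HCC1187. No gene of these 7 lists was called in the MYC slope or between media.

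Some members share exon sequence with other annotated genes, and reads there could have been assigned elsewhere. AL606760.2 lies antisense to CPT2 over 1151 bases (11% of its exons), AC090227.1 on the same strand as ACAA2 over 385 bases (7.59%), and RABGGTB on the same strand as ACADM over 157 bases (3.28%). ETFB shares 337 bases (5.16%) with AC008750.8 on the same strand, which held 5 counts in all, and 216 bases (3.31%) with AC008750.4 on the other strand. C1orf123 shares 99 bases (0.947%) with CPT2 and DLG4 85 bases (1.75%) with ACADVL, both on the other strand. Summed over the 45 libraries AL606760.2 held 706 counts, against 7655 of CPT2, and AC008750.4 held 631, against 12977 of ETFB. RABGGTB held more than its member, 77052 against 49494 of ACADM, as did C1orf123, with 7890 against the 7655 of CPT2. DLG4 held 1616, against 83210 of ACADVL, and AC090227.1 held 0. The processed pseudogenes HADHAP1 and HADHAP2 held 70 and 160 counts, against 119717 of HADHA.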

How the data were processed

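Counts per gene of 45 total RNA libraries were analysed. Per the labels' protocols, ribosomal RNA was removed and libraries were made from total RNA with ScriptSeq v2. The submitters' processing notes name bcl2fastq (2.20.0.422), Trimmomatic, STAR, featureCounts, FastQC, MultiQC and the build GRCh38.p12. Not given in the sources used here are other versions, the annotation release, the strand setting and how reads with several alignments were treated. What the authors deposited are raw counts, not normalized, and all 45 columns were used.

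Identifiers were matched to GENCODE 29 without version suffix (58320 of 64485, 90.4%; unmatched ones held 0.0785% of counts). CPM and log2 CPM (prior count 2) used TMM scaling in edgeR 4.0.16 (R 4.3.3). Genes were kept by filterByExpr (minimum count 10, minimum total 15). The quasi-likelihood F test, two-sided with Benjamini-Hochberg adjustment over all tested genes at 0.05, compared the 15 lines, each line with the mean of the other 14 (absolute log2 difference of at least 1), the slope on log2 CPM of MYC over 15 line sums, and 5 L-15 with 8 RPMI 1640 line sums (absolute log2 difference of at least 1). SE is the absolute estimate divided by the square root of F. The medium comparison omits BT-20 and Hs578T, each the sole line of its medium. The scripts were tested on simulated data.

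The members and gene lists were chosen with earlier results of these data known. Named genes are the 10 members, the 2 tested genes of each other list with the widest range of line means, and the likeness and neighbour genes. CPT1B, SLC25A20 and the neighbours singled out were chosen after their values were seen. Levels per kb use the union of annotated exons, not the transcripts in use. Replicates of a line differed by more than sampling noise in every case (chi-square per gene of 2.50 or more). In the 11 lines of runs 3 to 5 the replicate number marks the run, so it pairs samples by label; deviations of same-numbered libraries correlated at a median of 0.133, and of others at -0.0594. Alternatives were DESeq2 1.42.0 (scaling and test), a stricter scaling set, no filter, replicate and line left out, run as a block, limma 3.58.1 (voom), run sets, MYC rank and medium as a covariate. The depth of 2312138 to 14653677 counts sets the precision, given as SD or SE between samples. Sequences come from RefSeq (GRCh38.p14).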

Additional observations from a re-analysis of the deposited data

Results flagged for a closer look

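Among the members' line means within the RPMI 1640 and L-15 groups, 20 groups of values were tested for 1 line far from the others. Chance marks about 1 in 20. The gap over range was taken on mean log2 CPM, while the levels given here are in CPM. CPT1A in HCC1187, at 5.88 CPM, lay below the other 7 RPMI 1640 lines, the nearest of which had 42.4 CPM (gap over range 0.599). HADHB in HCC1806, at 388 CPM, lay above the other RPMI 1640 lines, the nearest of which had 151 CPM (gap over range 0.543). ACAA2 in MDA-MB-453, at 2.16 CPM, lay below the other L-15 lines, the nearest of which had 25.6 CPM (gap over range 0.746).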

How the results depend on the processing

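Of the 150 member and line pairs, 15 (10%) were called higher and 13 (8.67%) lower, against 16.2% and 12.5% of all gene and line pairs. Within the 4 lines of runs 1 and 2 the numbers were 2 and 1. These 4 lines give fewer pairs than 150, so 2 and 1 cannot be set directly against 15 and 13. With no minimum fold the numbers were 58 and 51 of the 150 pairs. With run as a replicate block they were 17 and 18, and all 10 members still differed among lines. The share of all genes called under these alternatives is not given here. With limma-voom, run in the design and line as the block, 0 members were called in the MYC slope and 0 between media. Of all genes, 75 rose and 161 fell of 20587 on MYC, and 55 were higher and 187 lower of 19711 between media. The limma-voom unadjusted p was under 0.05 for 2 members on MYC and for 4 between media. Single calls fell below an absolute difference of 1 for CPT2 in HCC1187 (0.90 without replicate 1), CPT2 in MDA-MB-231 (-0.94 without replicate 2), DECR1 in HCC70 (0.96 with scaling from a stricter gene set) and DECR1 in Hs578T, in 4 of 10 alternatives (0.95 with no filter, 0.94 without replicate 1, 0.82 without replicate 3, 0.44 within runs 1 and 2). The cause was not tested.

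Some slopes and medium differences changed sign, and none of these passed the test. They include ACAA2 and ACADM, whose slopes on MYC were 0.54 and 0.39. The ETFA slope on MYC was 0.0098. It was -0.0051 with DESeq2 size factors, -0.081 with stricter scaling and -0.088 with limma-voom and line as the block. It was -0.10 in the lines of runs 3 to 5, -0.054 with L-15 as a covariate and -0.95 in the RPMI 1640 lines. With L-15 as a covariate the ETFB slope was -0.051. Within the RPMI 1640 lines the slopes were -1.66 for ACADM, -0.0020 for ACAA2, -0.74 for ETFB and -0.36 for DECR1. Between media, ACADVL was -0.00069 under either DESeq2 setting and -0.15 with no filter, HADHB 0.11 with stricter scaling, and CPT2 -0.17 with no filter and -0.022 in the lines of runs 3 to 5.

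Leaving out 1 line or 1 replicate at a time moved the MYC slopes between -0.42 and 0.72 for ACADM, -0.17 and 0.22 for ACADVL, -0.51 and 0.10 for HADHA, -0.64 and 0.089 for HADHB, -0.13 and 0.88 for ACAA2, and -0.076 and 0.038 for ETFA. It moved the medium differences between -0.19 and 0.20 for CPT2, -0.15 and 0.17 for ACADVL, -0.62 and 0.079 for HADHA, and -0.57 and 0.36 for HADHB.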
